A study of Mus musculus with 12 samples.

Results

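The genes described here encode the main proteins that the mouse seminal vesicle secretes, and their transcripts were measured in whole prostate. They were chosen by name as Svs2, Svs3a, Svs3b, Svs4, Svs5, Svs6, Pate4, Spinkl, Sva and Ceacam10, and all 10 were found among the 23284 genes of the deposited table. RNA of prostate tissue was sequenced after poly-A selection at an age of 4 months, in 6 libraries from mice homozygous for a null allele (null) and 6 libraries from wild-type mice. Both groups had a mixed background of the strains 129/SvImJ and C57Bl/6J, and the labels name no treatment. The tissue was whole prostate, with no sorting of cells named in the labels, which do not say how the adjoining glands were dissected away. Nothing in the labels ties each library to an animal of its own, so every p-value here is against the spread among libraries, and that spread may be technical.

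The seminal vesicles are paired glands that lie against the prostate and make most of the fluid of the ejaculate in mice. They arise from the Wolffian duct, whereas the prostate arises from the urogenital sinus, and both depend on androgens. In the female tract the seminal vesicle proteins are cross-linked into a copulatory plug by transglutaminase 4, the product of Tgm4, which the prostate secretes. Other products of the same glands bind to sperm and change their motility or their readiness to fertilise.

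Values are on the deposited log2 scale, where a difference of 1 is a 2-fold difference, and the depth of each library is unknown because no counts were given. Olfactory receptor genes, taken here as a stand-in for undetected genes, stood at a median of 2.85 over the values of 1101 genes. Of those values 95% lay at or under 3.50, and values at or under 3.50 are called undetected here. The libraries of each genotype fell into 2 sets of 3, found over 3629 genes other than the members, namely null libraries 1, 2 and 5, null libraries 3, 4 and 6, wild-type libraries 1 to 3 and wild-type libraries 4 to 6. The median distance between null libraries ran from 0.0535 to 0.112 within a set and from 0.122 to 0.168 across sets, and between wild-type libraries from 0.0388 to 0.0702 within a set and from 0.103 to 0.129 across sets. Null library 5 lay close to an equal mix of null libraries 1 and 2 and null library 6 to an equal mix of null libraries 3 and 4. Of the 10 members, 9 in null library 5 and 10 in null library 6 stood within 0.15 of that mix. Among wild-type libraries, library 3 lay closest to an equal mix of libraries 1 and 2 and library 5 to one of libraries 4 and 6. There 5 and 3 members stood within 0.15 of the mix, in a genotype where several members lay around the undetected level. Libraries of a set may therefore not be independent, and results that rest on this are given with and without those libraries.

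Of the members, 6 lie side by side on chromosome 2, in the order Svs2, Svs3b, Svs4, Svs3a, Svs6 and Svs5, between the protease inhibitor genes Wfdc15b and Slpi. Of the others, Sva is on chromosome 6, Ceacam10 on chromosome 7 and Pate4 on chromosome 9. The 120 bases before the start of the 6 clustered genes are shown because these genes differ in how they varied between libraries, and because they show how near-identical the upstream sequence of some pairs is. They were taken from RefSeq on build GRCm38.p6, which differs from the mm9 build that the submitters' processing notes name, and are written 5′ to 3′ on the strand of the gene. Capitals mark TATAAA, the core of a TATA box, and GATAAG, a form of the letters bound by factors of the GATA family. Each was searched on both strands and marked where neither overlaps the other.
Svs2, minus strand, chr2:164238342-164238461: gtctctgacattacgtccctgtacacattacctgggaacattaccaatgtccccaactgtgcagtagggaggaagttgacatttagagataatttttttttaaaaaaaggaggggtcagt
Svs3a, plus strand, chr2:164289147-164289266: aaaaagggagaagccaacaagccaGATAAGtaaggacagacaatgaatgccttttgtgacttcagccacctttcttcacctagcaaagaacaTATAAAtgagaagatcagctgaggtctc
Svs3b, minus strand, chr2:164256644-164256763: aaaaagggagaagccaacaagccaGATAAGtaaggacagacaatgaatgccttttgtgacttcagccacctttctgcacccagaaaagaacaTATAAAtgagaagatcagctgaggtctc
Svs4, minus strand, chr2:164278308-164278427: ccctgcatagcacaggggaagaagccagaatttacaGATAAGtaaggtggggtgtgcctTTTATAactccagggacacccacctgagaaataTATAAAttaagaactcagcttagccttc
Svs5, plus strand, chr2:164332645-164332764: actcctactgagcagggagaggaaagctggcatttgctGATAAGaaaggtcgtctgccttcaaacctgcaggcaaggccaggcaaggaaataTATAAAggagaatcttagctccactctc
Svs6, plus strand, chr2:164316631-164316750: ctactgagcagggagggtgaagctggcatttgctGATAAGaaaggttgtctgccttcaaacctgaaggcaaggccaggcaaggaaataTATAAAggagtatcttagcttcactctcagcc

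Within these 120 bases TATAAA and GATAAG stood in Svs3a, Svs3b, Svs4, Svs5 and Svs6, and Svs2 had neither. TATAAA began 28 bases before the start in Svs3a, Svs3b, Svs4 and Svs5 and 32 bases before it in Svs6. GATAAG began 96 bases before the start in Svs3a and Svs3b, 84 in Svs4, 82 in Svs5 and 86 in Svs6. Over the promoters of 27025 genes in windows of the same length, 6.76% held TATAAA and 3.05% held GATAAG, and of the 8 members with a promoter sequence 5 held each. AGAACA, a half-site of the androgen receptor element, stood in 3 of the 8, namely Svs3a, Svs3b and Ceacam10, against 7.66% of all promoters. A match is a description of letters and not a binding site. Nor are these counts of separate sequences, since Svs3a and Svs3b were near-identical upstream, as were Svs5 and Svs6. Over 250 bases before the start Svs3a and Svs3b were identical at 97.6% of aligned positions and Svs5 and Svs6 at 93.3%, while Svs2 reached at most 46.7% with any other member. Over their longest transcripts Svs3a and Svs3b were 88.4% identical, so reads could be shared between them, and the rule by which reads were divided was not stated in the sources used here.

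All 10 members were higher in null prostate, and no null library of any member overlapped a wild-type library. Their differences ran from 1.80 for Spinkl to 11.71 for Svs4 on the log2 scale, with a median of 7.50, while the median over all 15096 tested genes was 0.012. By limma with Benjamini-Hochberg adjustment all 10 were called higher, against 28% of all tested genes called higher and 53.1% called in either direction. Over all tested genes 4224 were called higher and 3789 lower, a balance that turned to 3367 and 4869 after upper quartile scaling, and all members stayed called higher. Every null library stood above every wild-type library for 17.4% of tested genes. Called rises of at least 6 were found for 13 tested genes (0.0861%), of which 9 were members, and among rises Svs4, Svs3a, Svs5, Sva, Svs3b and Svs2 held positions 1 to 6. Svs3a, Svs3b, Svs6 and Sva reached a value of 4 in no wild-type library, so they entered the test through their null libraries alone and the count of calls carries no weight of its own. The exact two-sided permutation test over libraries gave p = 0.00216 for each member, the smallest that 924 splits of 6 against 6 allow. That value follows from the lack of overlap and adds nothing to it. It also treats libraries as independent, which those of a set may not be. In whole tissue, more secreting cells, more RNA per cell and adjoining gland left by the dissection cannot be told apart.

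**Figure D1:**
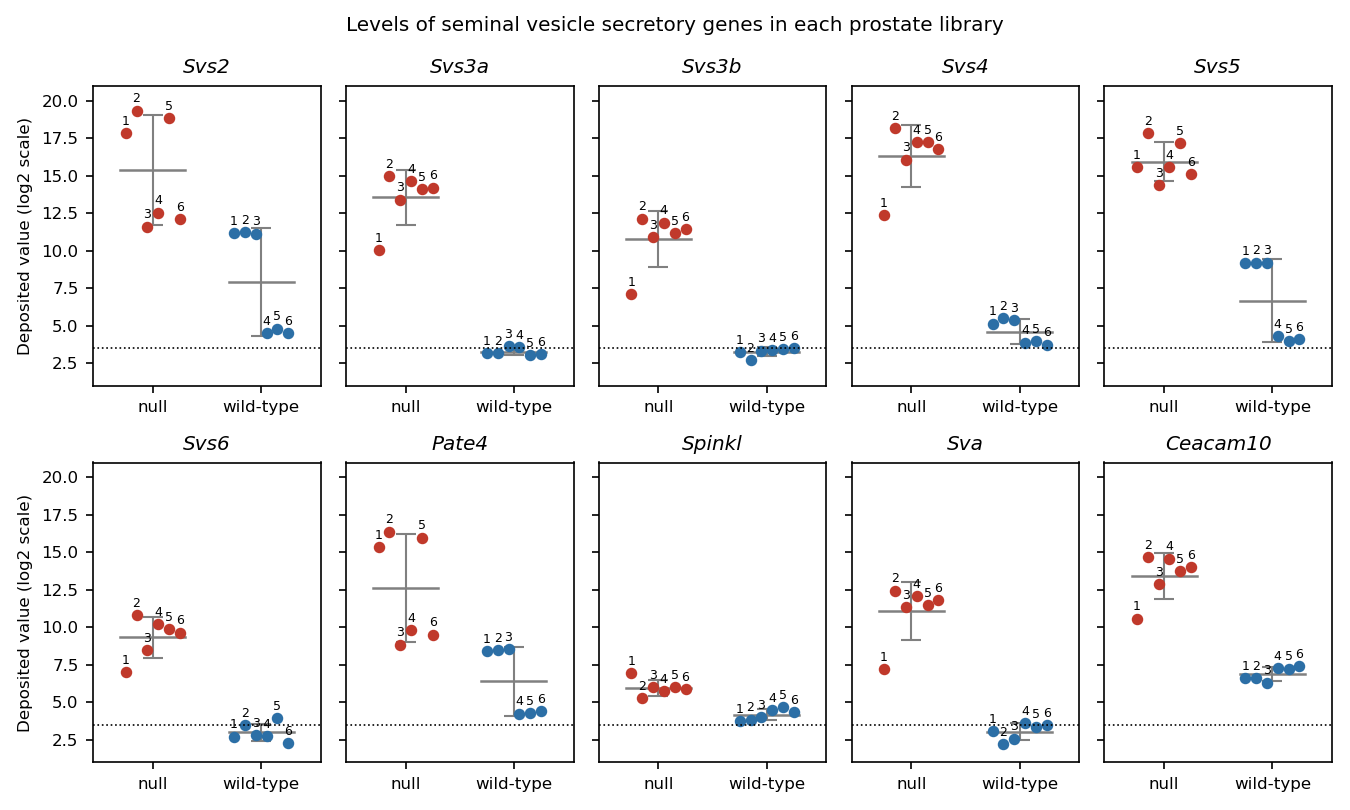
Deposited log2 value of each member in each library, with null libraries in red on the left and wild-type libraries in blue on the right of each panel, numbered 1 to 6. Horizontal lines and bars are the mean and SD of 6 libraries, and the dotted line at 3.50 is the 95th percentile of olfactory receptor gene values. Svs2 and Pate4 split both genotypes into 3 high and 3 low libraries, and Svs3a, Svs3b, Svs4, Svs6, Sva and Ceacam10 are lowest in null library 1.

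Svs2, the semenogelin-like protein that is a main building block of the plug, stood at 17.86, 19.36, 11.62, 12.56, 18.86 and 12.13 in null libraries 1 to 6, against 11.17, 11.26, 11.15, 4.53, 4.81 and 4.52 in wild-type libraries 1 to 6. Null libraries 1, 2 and 5 were far above the rest, and null libraries 3, 4 and 6 lay only just above wild-type libraries 1 to 3. Svs2 averaged 15.40 ± 3.65 in null and 7.91 ± 3.60 in wild-type libraries (SD, n = 6 each). The difference was 7.49 (SE 2.07, adjusted p = 0.0112 by limma). Its null sets differed by 6.59 and its wild-type sets by 6.57, each nearly as much as the genotypes did. The call was lost over the means of the 4 sets (adjusted p = 0.358) and without the 4 libraries nearest to an equal mix, null libraries 5 and 6 and wild-type libraries 3 and 5 (adjusted p = 0.0715). Without null libraries 1, 2 and 5 the difference was 4.19 (adjusted p = 0.141), and leaving out wild-type libraries 4 to 6 gave 4.20 (adjusted p = 0.149).

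Pate4, also known as Svs7, encodes a small cysteine-rich protein that binds to sperm. It stood at 15.34, 16.40, 8.84, 9.80, 15.98 and 9.53 in null libraries 1 to 6, against 8.42, 8.51, 8.54, 4.25, 4.28 and 4.43 in wild-type libraries 1 to 6. The same 3 null libraries were high as for Svs2, although the genes are on different chromosomes. Pate4 averaged 12.65 ± 3.60 in null and 6.40 ± 2.29 in wild-type libraries (SD, n = 6 each), a difference of 6.24 (SE 1.72, adjusted p = 0.0110 by limma). Here too the call was lost over set means (adjusted p = 0.357), without the 4 mix-like libraries (adjusted p = 0.0716), without null libraries 1, 2 and 5 (difference 2.98, adjusted p = 0.104) and once wild-type libraries 4 to 6 were left out (difference 4.16, adjusted p = 0.148).

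Svs5, a small secreted protein of the plug fluid, stood at 15.60, 17.87, 14.39, 15.60, 17.19 and 15.13 in null libraries 1 to 6. In wild-type libraries 1 to 6 it stood at 9.20, 9.21, 9.22, 4.32, 4.00 and 4.12. Its wild-type libraries split as those of Svs2 did, by 5.06 between sets, but its null sets differed by only 1.85 and every null library reached at least 14.39. Svs5 averaged 15.96 ± 1.31 in null and 6.68 ± 2.78 in wild-type libraries (SD, n = 6 each), a difference of 9.28 (SE 1.24, adjusted p = 0.000103 by limma). Over set means the call was lost (adjusted p = 0.122).

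Svs4, a small basic androgen-regulated protein with immune-modulating activity known from its rat counterpart, had the largest rise of all tested genes. It stood at 12.38, 18.20, 16.08, 17.24, 17.24 and 16.81 in null libraries 1 to 6, against 5.15, 5.52, 5.39, 3.88, 3.99 and 3.75 in wild-type libraries 1 to 6. Null library 1 was the low library, 3.70 under the next. The means were 16.32 ± 2.05 in null and 4.61 ± 0.82 in wild-type libraries (SD, n = 6 each), 11.71 apart (SE 0.89, adjusted p = 1.32e-06 by limma). Null libraries 1 and 2, which belong to the same set, were 5.82 apart for Svs4 and 1.50 apart for Svs2.

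Svs3a, another substrate of the plug, stood at 10.04, 15.00, 13.42, 14.66, 14.12 and 14.21 in null libraries 1 to 6, against 3.18, 3.17, 3.66, 3.57, 3.04 and 3.13 in wild-type libraries 1 to 6. Svs3b, its close copy, stood at 7.10, 12.15, 10.90, 11.89, 11.19 and 11.44 in null libraries 1 to 6, against 3.26, 2.72, 3.35, 3.37, 3.43 and 3.53 in wild-type libraries 1 to 6. Wild-type values of both genes lay around the undetected level, so their differences depend on that floor. The difference was 10.28 for Svs3a (SE 0.73, adjusted p = 6.14e-07) and 7.50 for Svs3b (SE 0.73, adjusted p = 6.35e-06), both by limma. In every null library Svs3a was above Svs3b, by 2.52 to 2.94.

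Svs6, the sequence partner of Svs5, stood at 7.04, 10.82, 8.50, 10.23, 9.89 and 9.64 in null libraries 1 to 6, against 2.71, 3.47, 2.82, 2.77, 3.94 and 2.29 in wild-type libraries 1 to 6. Wild-type library 5 was the only wild-type library above the undetected level. Svs6 averaged 9.35 ± 1.37 in null and 3.0 ± 0.59 in wild-type libraries (SD, n = 6 each), a difference of 6.36 (SE 0.57, adjusted p = 2.03e-06 by limma). Despite 93.3% identity upstream, Svs5 stood above Svs6 by 5.37 to 8.56 in the null libraries, and the gap was widest in null library 1.

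Sva, a relative of the prolactin-induced protein that suppresses sperm motility, stood at 7.21, 12.44, 11.34, 12.10, 11.50 and 11.83 in null libraries 1 to 6. In wild-type libraries 1 to 6 it stood at 3.09, 2.23, 2.59, 3.60, 3.37 and 3.47. Null library 1 was again low, 4.13 under the next, and the wild-type libraries lay around the undetected level. Sva averaged 11.07 ± 1.93 in null and 3.06 ± 0.54 in wild-type libraries (SD, n = 6 each), a difference of 8.01 (SE 0.78, adjusted p = 6.95e-06 by limma).

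Ceacam10, a secreted member of the carcinoembryonic antigen family that binds to sperm, stood at 10.59, 14.68, 12.88, 14.59, 13.76 and 14.02 in null libraries 1 to 6. In wild-type libraries 1 to 6 it stood at 6.61, 6.63, 6.31, 7.28, 7.24 and 7.41, so all 12 libraries had a level well above undetected genes. Its wild-type sets differed by -0.79, with libraries 4 to 6 higher, opposite in sign to Svs2, Pate4 and Svs5. Ceacam10 averaged 13.42 ± 1.53 in null and 6.91 ± 0.45 in wild-type libraries (SD, n = 6 each), a difference of 6.51 (SE 0.64, adjusted p = 8.80e-06 by limma).

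Spinkl, a Kazal-type inhibitor-like protein that binds to sperm, was the low member and is on chromosome 18. It stood at 6.95, 5.31, 6.00, 5.77, 6.01 and 5.87 in null libraries 1 to 6, against 3.75, 3.85, 4.00, 4.49, 4.68 and 4.33 in wild-type libraries 1 to 6. Null library 1, the lowest for 6 other members, was the highest for Spinkl, and null library 2, the highest for all 9 others, was the lowest. The means were 5.98 ± 0.54 in null and 4.18 ± 0.37 in wild-type libraries (SD, n = 6 each), 1.80 apart (SE 0.24, adjusted p = 2.24e-05 by limma). Ordered by rise, it held position 143 of the 15096 tested genes.

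Svs3a, Svs3b, Svs4, Svs6, Sva, Ceacam10 and Spinkl kept their calls in each of the 25 alternatives tried. Svs4 differed by 11.34 to 12.50 and Spinkl by 1.61 to 1.94 when each library was left out in turn. Over set means 7 of the 10 members were called higher, against 7.58% of all tested genes. Svs3a, Svs3b, Svs6 and Sva are among these 7 and passed the filter through their null libraries alone. The count therefore carries no weight of its own.

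Ranked among all genes of a library, several members were among the most abundant transcripts of null prostate. On deposited values Svs4 ranked 356, 4, 13, 5, 6 and 7 in null libraries 1 to 6, with a median of 6.5, against a median of 14121 in wild-type libraries. Svs2 ranked 3, 2, 893, 365, 3 and 532 in null libraries 1 to 6, against 1230, 1125, 1259, 13959, 13522 and 13989 in wild-type libraries 1 to 6. Svs5 had the steadiest high rank, between 5 and 54 in null libraries, against a median of 9996.5 in wild-type libraries. The next ranks by median were those of Svs3a at 73.5 and Ceacam10 at 91.5 in null libraries, against 18229.5 and 10489 in wild-type libraries. Pate4 ranged from 13 to 6696 over the null libraries and Spinkl from 10493 to 12709.

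Levels of different genes compare only per length, and the sources used here did not state whether the deposited values were already divided by it. Values were therefore also ranked per kilobase of the longest transcript, a ranking that holds only if they were not. On that scale Svs4 had a median rank of 4, Svs5 of 8, Svs3a of 30, Ceacam10 of 33.5 and Svs2 of 93 in null libraries. Sva followed at 118.5, Svs3b at 365.5, Svs6 at 492, Pate4 at 607 and Spinkl at 7327. Svs4 and Svs5 differed by less than their spread over null libraries, with ranks of 1 to 74 and 3 to 15, and the ranges of Svs3a (21 to 994) and Ceacam10 (22 to 522) overlapped almost wholly. The 20 highest genes per length held 3, 4, 2, 2, 4 and 2 members in null libraries 1 to 6 and 0 in each wild-type library. The 100 highest held 4 to 7 members in null libraries and 0 in each wild-type library.

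**Figure D2:**
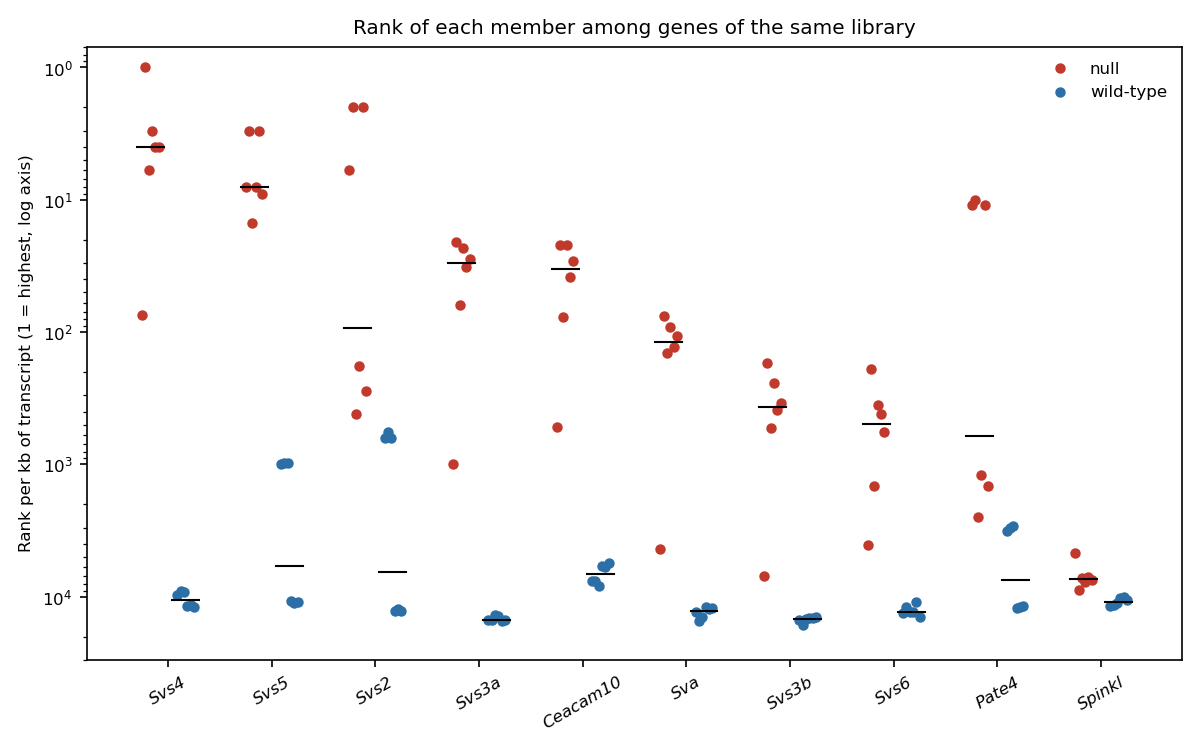
Rank of each member per kilobase of transcript among the genes of its library, on a log axis with the highest gene at the top, for null libraries (red, left of each pair) and wild-type libraries (blue, right). Black lines are medians of 6 libraries, from 4 for Svs4 to 7327 for Spinkl in null libraries. Svs2 and Pate4 form 2 separate clusters of 3 in each genotype.

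Taken back to the linear scale, the 10 members made up 1.85%, 6.91%, 0.609%, 1.30%, 4.62% and 0.987% of the sum over all genes in null libraries 1 to 6. In wild-type libraries 1 to 3 they made up 0.0189%, 0.0199% and 0.0189%, and in wild-type libraries 4 to 6 0.00154%, 0.00155% and 0.00156%. The lowest null share was 30.5 times the highest wild-type share. The make-up of that sum differed by set. Svs2 took 70.5%, 49.1% and 53.9% of it in null libraries 1, 2 and 5, but 2.68%, 2.22% and 2.26% in null libraries 3, 4 and 6, where Svs4 took 58.8%, 57.1% and 57.7%. Svs4 took only 1.58% in null library 1, although this library had a larger total than null libraries 3, 4 and 6. In wild-type libraries 1 to 3 Svs2 took 67.5%, 68.1% and 66.6% and Svs4 1.04%, 1.28% and 1.22%, a make-up close to that of null library 1. Svs5 was the even component, at 14.7% to 18.3% in null libraries and 16.5% to 17.5% in wild-type libraries 1 to 3. Wild-type libraries 4 to 6 held mainly Ceacam10, with the other members near the undetected level. These shares were not divided by transcript length here, and the longest transcript of Svs2 has 1695 bases against 731 for Svs4. Per kilobase, Svs4 at 18.65 stood above Svs2 at 18.60 in null library 2.

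**Figure D3:**
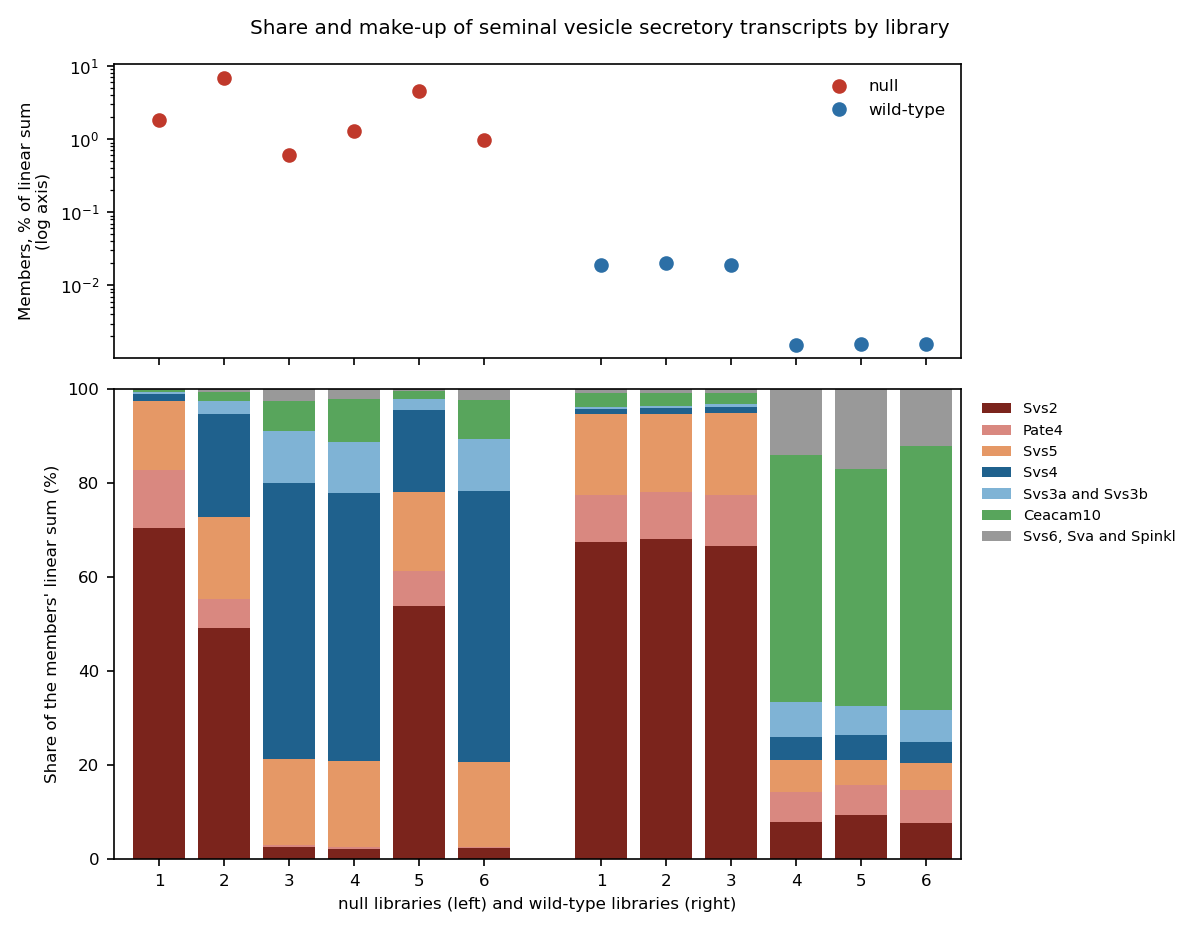
Top, share of the members in the linear sum of all genes in each library, on a log axis, with null libraries in red and wild-type libraries in blue. Bottom, share of each member or group of members in the members' own linear sum, as stacked bars per library. On these sums, which were not divided by transcript length here, Svs2 leads in null libraries 1, 2 and 5 and in wild-type libraries 1 to 3. Svs4 leads in null libraries 3, 4 and 6.

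Co-variation was described over the 6 null libraries by the root-mean-square distance between centred profiles, with no test, since the libraries share sets and mixes. Over the 45 pairs of members the distance ran from 0.111 to 4.16 with a median of 1.79, and 16 pairs lay under 1. The closest pair was Svs3b and Sva, on different chromosomes, at 0.111, followed by Svs3a and Svs3b at 0.138 and Svs2 and Pate4 at 0.154. Svs2 exceeded Pate4 by 2.52 to 2.97 in null libraries and by 2.61 to 2.75 in wild-type libraries 1 to 3, so the gap was alike in both genotypes wherever both genes were well detected. In wild-type libraries 4 to 6, where both were near the undetected level, the gap was 0.10 to 0.53. Svs2 and Svs5 held no such gap over null libraries, where Svs2 minus Svs5 ran from -3.04 to 2.26, but in wild-type libraries 1 to 3 it was 1.93 to 2.05.

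Svs3a, Svs3b, Sva and Ceacam10 ordered the null libraries alike, as 2, 4, 6, 5, 3 and 1 from high to low. Svs2 and Pate4 shared another order, namely 2, 5, 1, 4, 6 and 3, and Svs4 and Svs6 each differed from the first order by the place of library 5. Svs5 followed 2, 5, 4, 1, 6 and 3. Spinkl followed 1, 5, 3, 6, 4 and 2, nearly the first order turned round. Sva and Ceacam10, on other chromosomes, lay nearer to Svs3b in profile than Svs2, its neighbour on chromosome 2, did.

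**Figure D4:**
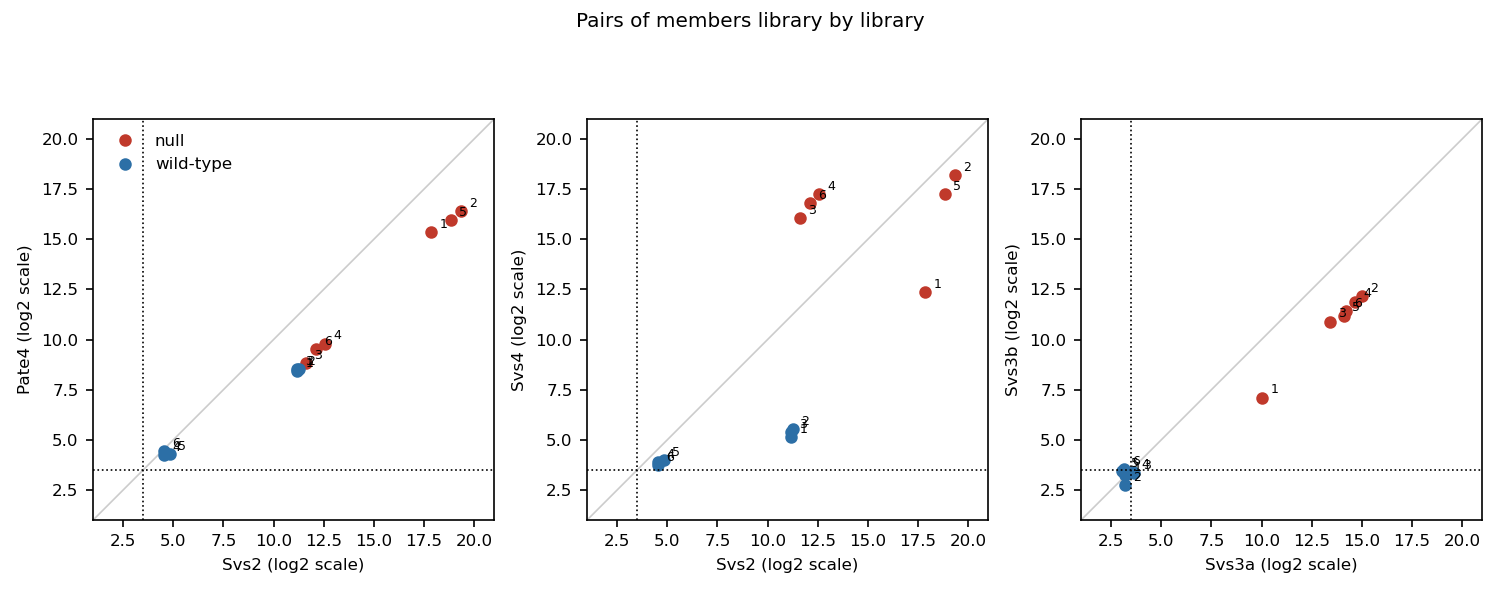
Log2 values of 3 pairs of members in each library, with null libraries in red and wild-type libraries in blue, numbered 1 to 6, dotted lines at the undetected level of 3.50 and a grey line of equal values. Svs2 and Pate4 (left) and Svs3a and Svs3b (right) run parallel to the grey line over null libraries. Svs2 and Svs4 (middle) do not, with null library 1 at 17.86 for Svs2 and 12.38 for Svs4.

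The non-member most like the median profile of the members, among 13171 genes with a null mean of at least 5, was Wfdc15b, a whey acidic protein inhibitor gene next to Svs2, at a distance of 0.293 over the 6 null libraries. Wfdc15b stood at 7.98, 11.43, 10.45, 11.13, 10.65 and 10.87 in null libraries 1 to 6, against 3.83 ± 0.40 in wild-type libraries (SD, n = 6), a difference of 6.59 (adjusted p = 5.31e-07 by limma). Spink3, a Kazal-type trypsin inhibitor of seminal vesicle and prostate secretion, came next at 0.294, but its genotypes differed the other way. It stood at 11.23, 15.05, 13.80, 14.11, 14.21 and 13.99 in null libraries 1 to 6, against 17.73 ± 0.23 in wild-type libraries (SD, n = 6), a difference of -4.00 (adjusted p = 5.65e-05). Also among the nearest were Gpr101, an orphan receptor gene (0.446, difference 3.32), Khdc1a (0.50, difference 4.86), Pou2f3, a POU transcription factor gene (0.554), and Spock1, a proteoglycan gene (0.712, difference 2.51). Pou2f3 differed by -0.15 between genotypes and was not called (adjusted p = 0.717), so a like profile over null libraries came with differences between genotypes in both directions or with none that was called.

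Genes nearest to single members were looked up after the values were seen. Nearest to Svs4 was the gene model Gm4956, at 7.74, 13.89, 11.85, 12.99, 12.97 and 12.58 in null libraries 1 to 6, against 5.23 ± 0.46 in wild-type libraries (SD, n = 6), with a distance of 0.144. Nearest to Svs2 were Cyp4a12a, a fatty acid hydroxylase gene, at 0.444 and Crisp1, a cysteine-rich protein of the epididymis, at 0.695. Crisp1 stood at 8.40, 11.31, 3.60, 2.73, 10.42 and 3.74 in null libraries 1 to 6 and at 3.22 ± 0.79 in wild-type libraries (SD, n = 6). Emx2, a homeobox gene of the Wolffian duct, stood at 7.53, 8.52, 3.96, 3.40, 8.28 and 3.65 in null libraries 1 to 6 and at 3.76 ± 0.31 in wild-type libraries (SD, n = 6). Both were high in null libraries 1, 2 and 5, as Svs2 and Pate4 were. In wild-type libraries 1 to 3, where Svs2, Pate4 and Svs5 were raised, Crisp1 stood at 3.55, 4.32 and 3.72, against 2.79, 2.15 and 2.79 in wild-type libraries 4 to 6. Emx2 stood at 3.84, 3.50 and 3.48 in wild-type libraries 1 to 3 and at 4.24, 3.99 and 3.53 in wild-type libraries 4 to 6.

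Of 10 other seminal vesicle products in the table, 5 were tested, of which 3 rose and 2 fell, with a median difference of 0.36 beside 0.012 over all tested genes. Qsox1, a sulfhydryl oxidase of the gland, stood at 14.89, 15.69, 15.93, 16.30, 15.38 and 16.13 in null libraries 1 to 6, against 10.21 ± 0.48 in wild-type libraries (SD, n = 6), and rose by 5.51 (SE 0.27, adjusted p = 1.22e-08 by limma). Serpine2, a protease inhibitor, rose by 1.54 and Pcsk5, a proprotein convertase, by 0.36, while Spink3 and Ltf, which encodes lactoferrin, fell. Over set means the calls of Pcsk5 (adjusted p = 0.246) and Ltf (adjusted p = 0.292) were lost. Ltf followed the library sets, at 4.89, 6.01, 3.59, 3.56, 5.79 and 3.64 in null libraries 1 to 6, against 5.18, 5.45, 5.47, 7.80, 7.89 and 7.88 in wild-type libraries 1 to 6. Over the null libraries Qsox1 ranged by 1.41 and Serpine2 by 0.68, against 5.82 for Svs4. Svs1, an amine oxidase-like protein of the same fluid, reached 4 in too few libraries to be tested and is named after its values were seen. It stood at 8.25, 4.81, 3.47, 2.82, 7.23 and 2.71 in null libraries 1 to 6, against 2.36 to 3.49 in wild-type libraries. The other untested products were Sval1, Sval2, Sval3 and Serpina5. They were above the undetected level in 0, 1, 0 and 0 null libraries and in 3, 0, 0 and 2 wild-type libraries.

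Among 19 genes of plug cross-linking and its breakdown, 6 were tested, of which 1 rose, 3 fell and 2 were not called, with 1 higher and 1 lower over set means. Tgm4, the enzyme that cross-links the plug, stood at 19.17 ± 0.21 in null and 19.57 ± 0.10 in wild-type libraries (SD, n = 6 each), a fall of 0.39 (adjusted p = 0.00291 by limma) that was lost over set means (adjusted p = 0.285). Spinlw1, known as eppin, a protease inhibitor that binds semenogelin, rose by 2.22, and Acpp, prostatic acid phosphatase, fell by 1.66. Plau, which encodes urokinase, was not called (adjusted p = 0.192), with 10.27, 11.43 and 10.98 in null libraries 1, 2 and 5, 6.65, 6.39 and 6.74 in null libraries 3, 4 and 6 and 7.17 ± 0.17 in wild-type libraries (SD, n = 6).

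Of 28 neighbours of the chromosome 2 cluster, 16 were tested, of which 9 rose and 4 fell, beside 28% higher and 25.1% lower over all tested genes, with a median difference of 0.24. Over set means 4 rose and 3 fell. The whey acidic protein genes of the region moved both ways. Wfdc8 rose by 4.29 (adjusted p = 1.58e-12) and Wfdc6b by 4.68 (adjusted p = 2.99e-12), whereas Wfdc3 fell by 3.36 (adjusted p = 2.01e-07), all by limma. Slpi, the antileukoproteinase gene directly beyond Svs5, stood at 4.15 ± 0.37 in null and 7.14 ± 0.30 in wild-type libraries (SD, n = 6 each), a fall of 2.99 (adjusted p = 7.89e-09 by limma). Wfdc12, named after its values were seen, stood at 6.04, 12.30, 14.07, 14.40, 11.38 and 14.26 in null libraries 1 to 6, against 5.45 ± 1.87 in wild-type libraries (SD, n = 6). Relatives of the members elsewhere also moved both ways, with 5 of 10 tested paralogs higher and 4 lower, and 3 higher and 2 lower over set means. Spink8 rose by 2.62 and Ceacam13 by 1.62, while Spink5 fell by 7.09 and Ceacam2 by 3.31.

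**Figure D5:**
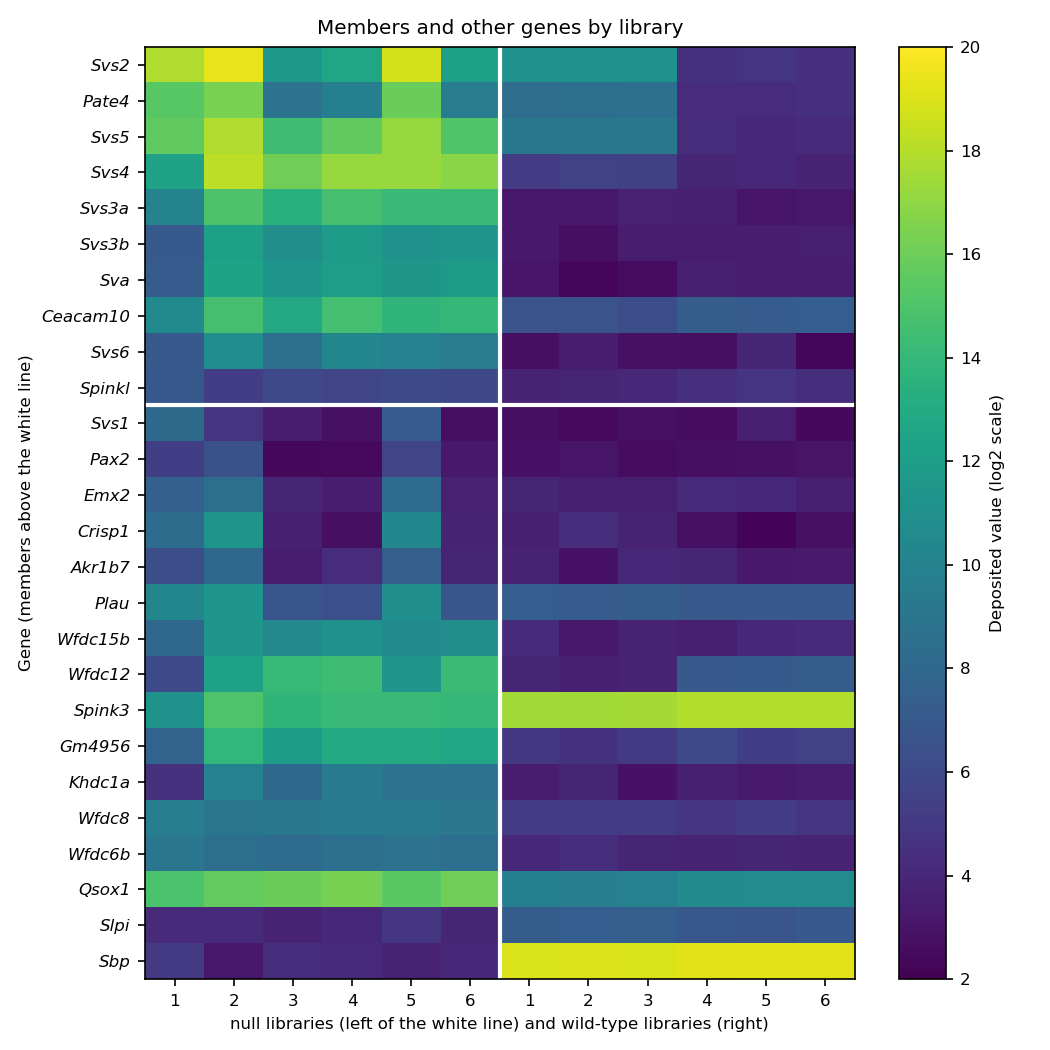
Deposited log2 value of the 10 members (above the horizontal white line) and 16 other genes in null libraries (left) and wild-type libraries (right), as colour from dark (low) to yellow (high). Svs1, Pax2, Emx2, Crisp1, Akr1b7 and Plau are higher in null libraries 1, 2 and 5 than in null libraries 3, 4 and 6. Qsox1, Wfdc8 and Wfdc6b are even over the null libraries, and Spink3, Slpi and Sbp are higher in wild-type libraries.

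Markers of other tissues that a dissection could hold were counted beside these results. Over all tested genes 28% were called higher and 25.1% lower, and 7.58% were called higher over set means. Prostate markers, which held the homeobox gene Hoxb13 beside secretory genes, were detected in both groups. Above the undetected level were 7 to 8 of 8 in null and 8 of 8 in wild-type libraries. Of the 8, 7 fell and 1 rose, and over set means 6 fell and 0 rose. Sbp, the spermine-binding protein, stood at 4.07 ± 0.64 in null and 19.12 ± 0.11 in wild-type libraries (SD, n = 6 each), a fall of 15.04. Of 15 epididymis and vas deferens markers, 5 to 8 were above the undetected level in null and 4 to 6 in wild-type libraries. Their summed levels were 8.15 to 11.67 in null and 9.25 to 10.27 in wild-type libraries on the log2 scale. These sums rested on different genes. The highest means in wild-type libraries were those of Lcn2 (8.58) and Adam7 (8.16). In null libraries Lcn2 averaged 7.83, and Crisp1 stood at 8.40, 11.31 and 10.42 in null libraries 1, 2 and 5. Chosen after their values were seen, Lcn8, Lcn9, Rnase9 and Defb20, which mark the epididymis, lay under the undetected level in all 12 libraries. Lcn6 and Lcn12 of the same list stood above that level in 5 and 4 null and in 5 and 6 wild-type libraries. Cst11, another epididymal gene, stood just above that level in all 6 null libraries, at 3.67 to 4.22, and under it in all 6 wild-type libraries, at 2.56 to 3.11. Akr1b7, an aldose reductase of the vas deferens, stood at 6.29, 8.04, 3.46, 4.29, 7.48 and 3.90 in null libraries 1 to 6, against 2.89 to 3.97 in wild-type libraries. Adam7, an epididymal metalloprotease-like gene, stood at 3.17 ± 0.51 in null and 8.16 ± 0.32 in wild-type libraries (SD, n = 6 each), a fall of 4.99.

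Of 6 regulators of the Wolffian duct, 2 to 5 were above the undetected level in null and 2 to 4 in wild-type libraries, with summed levels of 11.08 to 11.25 in null and 10.49 to 10.67 in wild-type libraries on the log2 scale. Hoxa11 rose by 1.05 and was even over the null libraries, at 8.40 to 8.61. Hoxa10 rose by 0.42 over 12 libraries but was not called over set means (adjusted p = 0.0887), with 10.62, 10.64 and 10.58 in null libraries 1, 2 and 5 and 10.94, 10.93 and 10.95 in null libraries 3, 4 and 6. Pax2, a duct transcription factor, stood at 5.37, 6.44, 2.38, 2.47, 5.75 and 3.21 in null libraries 1 to 6, against 2.56 to 3.03 in wild-type libraries. Svs2 and Pate4 were higher in null libraries 1, 2 and 5 than in null libraries 3, 4 and 6. So were Svs1, Pax2, Emx2, Crisp1 and Akr1b7, and their part in that result was not tested. Among null libraries 1, 2 and 5, Svs2 was highest in library 2 (19.36). Pax2 (6.44), Emx2 (8.52), Crisp1 (11.31) and Akr1b7 (8.04) were also highest in library 2, and Svs1 was lowest there (4.81). In null libraries 3, 4 and 6 Pax2 lay under the undetected level of 3.50 and Emx2 stood at 3.96, 3.40 and 3.65. Hoxa10 and Hoxa11 were well above that level there. Svs4 stood at 16.08 to 17.24 and Svs5 at 14.39 to 15.60 in these libraries, and any link between these levels was not tested.

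Adipocyte markers moved with null library 1, where 6 members were low. Of 9 such genes 5 rose (3 over set means) and 4 were not called, and their summed level on the log2 scale ran from 7.87 to 11.58 in null and from 8.11 to 9.45 in wild-type libraries. Car3, a carbonic anhydrase of fat, stood at 10.09, 5.57, 8.34, 9.10, 9.13 and 8.82 in null libraries 1 to 6, against 7.39, 7.03, 7.31, 5.05, 5.26 and 5.39 in wild-type libraries 1 to 6. It was highest in null library 1 and lowest in null library 2, the reverse of Svs4, and it was higher in wild-type libraries 1 to 3, as Svs2 was. The part of fat in these results was not tested. Urothelial markers had 2 of 3 tested genes higher and 1 not called, with summed levels of 13.22 to 14.45 in null and 12.54 to 12.82 in wild-type libraries. Smooth muscle had 1 of 9 tested markers higher, 1 lower and 7 not called (0 higher and 0 lower over set means). Skeletal muscle had 2 of 6 higher and 3 lower (0 and 2 over set means). Testis and sperm had 1 of 3 higher and 2 not called (0 higher over set means).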

How the data were processed

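RNA of whole prostate was extracted with the MagMAX-96 kit, selected for poly-A, made into Illumina TruSeq libraries and sequenced on an Illumina HiSeq, as the labels' protocols state. Of tools, the submitters' processing notes list DESeq, Cufflinks 2.0.2, TopHat2 2.0.4 and CASAVA 1.8.2, beside build mm9, without saying what each did. The authors deposited 1 table of log2-scale values for 23284 genes in 12 libraries, from 1.07 to 21.6; their exact transformation was not stated in the sources used here, the depth is unknown and no count test was used. Samples were grouped by genotype, and library numbers follow accession order within a genotype and pair nothing.

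Deposited values were tested with limma 3.58.1 in R 4.3.3 (trend, robust moderation, Benjamini-Hochberg over 15096 genes, threshold 0.05), for genes at 4 or more in at least 6 libraries, with genotype as the only term. The fit was tested on simulated data. Library sets were chosen so that 1 of 3 libraries was nearest to an equal mix of the other pair, by the median absolute log2 difference over 3629 non-member genes with a mean of at least 10. Lengths came from GENCODE M21 (20858 of 23284 genes), promoters from RefSeq. Shares and linear sums used values taken back from log2, so they inherit the deposited scaling. The text names all 10 members, up to 4 called genes of each list by adjusted p and the genes nearest to the members' median profile; others are said to be chosen after their values were seen, as were Ltf, Plau, Akr1b7, Pax2, Car3 and Adam7 where the rule did not name them. The members, lists and tests were chosen with earlier results of these data known. The targeted gene and some items that the rule names are not reported here. Alternatives were other filters, scalings and variance models, an exact rank-sum test, each library or set left out, set means, a random block per set and the mix-like libraries left out.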

Additional observations from a re-analysis of the deposited data

Results flagged for a closer look

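Null library 1 stood apart from the other 5 null libraries for 4 members, with a gap to the nearest library, divided by the range of the group, above Dixon's 95% critical value for 6 values. The ratio was 0.682 for Svs3a, at 10.04 in null library 1, and 0.752 for Svs3b, at 7.10. It was 0.636 for Svs4, at 12.38, and 0.789 for Sva, at 7.21. These members vary together, so the 4 are not separate observations. Svs3b in wild-type library 2, at 2.72, had a ratio of 0.659, and all wild-type values of that gene lay around the undetected level. Chance flags about 1 in 20 groups.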

How the results depend on the processing

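No paired analysis was possible because the labels give no replicate numbers shared between genotypes. No difference of a member reversed under any of the 25 alternatives. Over set means the calls of Svs2 (7.49, adjusted p = 0.358), Pate4 (6.24, adjusted p = 0.357) and Svs5 (9.28, adjusted p = 0.122) were lost by limma. Without the 4 mix-like libraries Svs2 differed by 7.48 (adjusted p = 0.0715) and Pate4 by 6.19 (adjusted p = 0.0716). Without null libraries 1, 2 and 5 the differences were 4.19 for Svs2 and 2.98 for Pate4, and without wild-type libraries 4 to 6 they were 4.20 and 4.16, with no call. Fits of the same size gave larger, called differences, with 10.79 for Svs2 and 9.5 for Pate4 without null libraries 3, 4 and 6, and 10.78 and 8.33 once wild-type libraries 1 to 3 were left out. The cause was not tested. With each library left out in turn, Svs2 differed by 6.70 to 8.25 and Pate4 by 5.49 to 7.0, all called. Tested genes called higher and lower numbered 4224 and 3789 over 12 libraries, 1144 and 1051 over set means, and 2682 and 2302 with a random block per set (correlation 0.50). Counts per list moved by over 1.5 times for 12 of 24 over set means, 5 without a filter and 3 after quantile normalization. Another scaling shifted the median of all tested genes by at most 0.071, but upper quartile scaling turned the counts to 3367 higher and 4869 lower, and quantile normalization to 4073 and 4174. The depth is unknown, so how far undetected wild-type levels lie below the floor cannot be given.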

Other observations

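Cdo1, a cysteine dioxygenase gene whose profile over the 6 null libraries lay near that of Svs2, stood at 12.37, 13.37, 8.47, 9.52, 12.92 and 9.21 in null libraries 1 to 6, against 7.43 ± 0.20 in wild-type libraries (SD, n = 6). It was high in null libraries 1, 2 and 5, as Svs2 was. It was looked up after values were seen.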
